A study of Homo sapiens with 10 samples.

Results

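The genes described here are peroxidasin (PXDN) and 9 further enzymes that cross-link collagen and elastin or prepare collagen for it: LOX, LOXL1, LOXL2, LOXL3, LOXL4, PLOD1, PLOD2, PLOD3 and TGM2. They are 10 of the 58302 genes in the deposited tables, and each was found by its symbol and Ensembl identifier. The set was assembled because PXDN had the largest fall in SK-hep1 cells given PSPC1, so that difference chose the genes and is given below as a description. The other 9 genes were added by function, at a time when earlier results of these data were known. PSPC1 (paraspeckle component 1) is an RNA-binding protein of nuclear paraspeckles, PTK6 is a nonreceptor tyrosine kinase, and the study examined how the kinase and PSPC1 act on each other in hepatocellular carcinoma. RNA-Seq was made from 1 library for each of 10 conditions in 3 human cell lines. SK-hep1 was sequenced as mock control and with overexpression of PSPC1, of PSPC1 together with PTK6, of the Y523F mutant of PSPC1, or of that mutant together with PTK6. Mahlavu was sequenced as mock control, with a C-terminal fragment of PSPC1 called PSPC1-CT131, and with a construct called Mut-NLS here. The label of the latter names a mutation of PSPC1 in its nuclear localization sequence. The study describes its mutant of that kind as the PSPC1-CT131 fragment with this sequence disrupted. Huh-7 was sequenced untreated and after HGF, the ligand of the c-Met receptor, at 10 ng/ml for 48 h. The constructs were transfected as plasmids. The methods of the study speak of stable clones, picked with G418 or zeocin, for its work in animals, and do not say whether the sequenced lines were such clones.

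Collagen becomes a load-bearing matrix only after it is modified inside the cell and cross-linked outside it. The PLOD enzymes (lysyl hydroxylases) act first, in the endoplasmic reticulum, where they hydroxylate lysines of procollagen, and PLOD2 is the one known for the lysines of the telopeptides. LOX and the LOX-like enzymes are secreted, copper-dependent amine oxidases that turn lysines of collagen and elastin into reactive aldehydes. Peroxidasin is a secreted heme peroxidase that forms the sulfilimine bonds between collagen IV trimers of basement membranes, and TGM2 (transglutaminase 2) joins glutamine and lysine residues of many proteins inside and outside the cell. In liver, LOX, LOXL2 and TGM2 are known from fibrosis, and LOX, LOXL2, PLOD1 and PLOD2 are among the genes that hypoxia can induce.

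The libraries held 15245935 to 24278662 reads on genes. In SK-hep1, PSPC1 was listed at 0 reads in the mock library, 209 with PSPC1, 930 with PSPC1 and the kinase, 71 with the mutant and 2539 with the mutant and the kinase. PTK6 had 277, 307, 1060, 230 and 679 reads in the same order, so both libraries with PTK6 also held more PSPC1 than their partners without it. In Mahlavu, PSPC1 had 1582 reads in mock, 899 in the library labelled PSPC1-CT131 and 632 in the library labelled Mut-NLS, and did not rise with either construct. PTK6 had 541, 906 and 879 reads in the same order, so it was higher in both than in mock. Of 12 hepatocyte markers, 12 reached 1 FPKM (reads scaled for the length of the gene and the total of the library) in both Huh-7 libraries, but 1, SERPINA1, did so in each SK-hep1 and Mahlavu library. Between 0 and 1 of 10 endothelial markers reached 1 FPKM in each SK-hep1 and Mahlavu library. With 1 library per condition, no difference between conditions has a replicate check and none can be tested. The intervals given are 95% Wilson intervals for a level and exact 95% binomial intervals for a ratio of read rates (the reads of a gene over all reads of the library), and they cover counting error only, since the reads carry no molecular identifiers.

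The 3 cell lines held different sets of these enzymes. In SK-hep1 the gene with the highest FPKM of the 10 was TGM2, in Mahlavu it was LOXL2 and in Huh-7 it was PLOD3. PXDN and LOXL1 had reads in every SK-hep1 library and 0 reads in each of the 3 Mahlavu libraries. LOXL2 supplied 87.7% to 99.2% of the summed FPKM of the LOX family in the 8 SK-hep1 and Mahlavu libraries, while LOX supplied 67.1% and 55.9% in Huh-7. Huh-7 was normalized apart from the other lines, so levels across lines were set side by side without a comparison. The deposited FPKM divide the reads by lengths that were mostly shorter than the longest annotated transcript, 1588 against 6808 bases for PXDN and 850 against 2920 for PLOD3. With the longest transcript as the length, TGM2 and LOXL2 kept their places in SK-hep1 and Mahlavu, while PLOD2 and not PLOD3 came first in Huh-7.

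**Figure D1:**
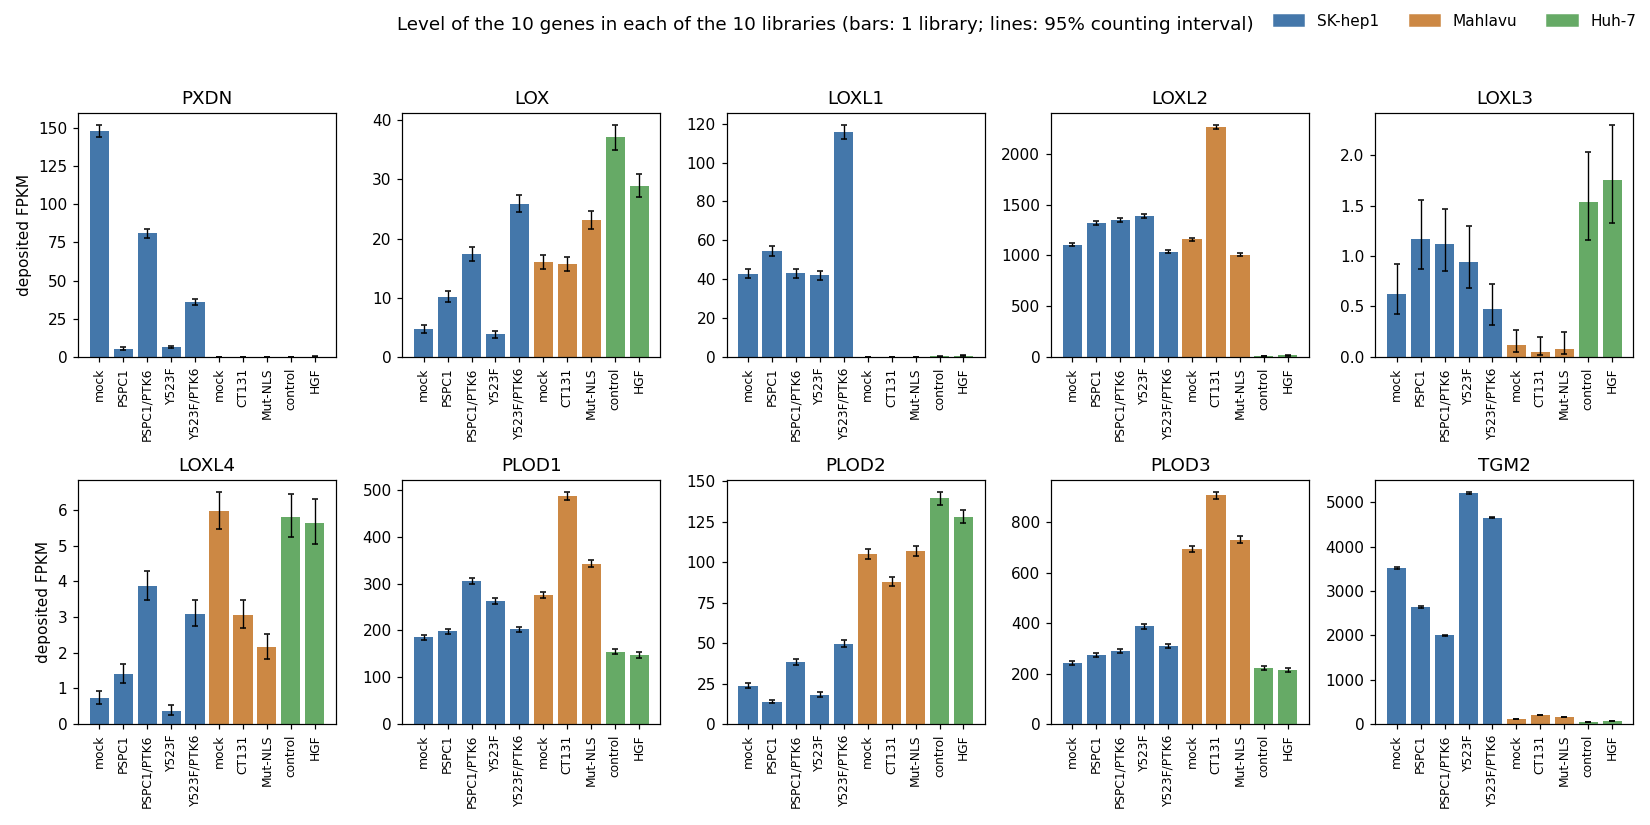
Each panel shows 1 gene, with the deposited FPKM on a linear vertical axis from 0 and the 10 libraries along the horizontal axis, coloured by cell line. A bar is 1 library and its line the 95% Wilson counting interval; PXDN stood at 148 FPKM in SK-hep1 mock and at 0 in all 3 Mahlavu libraries, and LOXL1 at 116 FPKM in PSPC1-Y523F/PTK6.

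PXDN lies on chr2:1631887-1744852 (GRCh38, minus strand). In SK-hep1 mock it was listed at 148 FPKM (5098 reads, interval 144 to 152), 1003rd from the top of all genes. It stood at 5.42 FPKM in PSPC1 (174 reads) and at 6.48 FPKM in PSPC1-Y523F (217 reads), and the intervals of these 2 libraries, 4.67 to 6.29 and 5.67 to 7.40, overlapped. With PTK6 present it stood at 80.9 FPKM in PSPC1/PTK6 (3067 reads, interval 78.1 to 83.8) and at 35.7 FPKM in PSPC1-Y523F/PTK6 (1377 reads, interval 33.9 to 37.7). The order was thus mock, PSPC1/PTK6, PSPC1-Y523F/PTK6 and then the 2 libraries of PSPC1 alone and of the mutant alone, which counting error did not separate. In Mahlavu PXDN had 0 reads in mock, PSPC1-CT131 and Mut-NLS, where the floor of 3 reads corresponds to 0.0833, 0.0954 and 0.0990 FPKM and the Wilson intervals reach to 0.107, 0.122 and 0.127 FPKM. In Huh-7 it had 1 read in each library. These are bulk libraries, in which fewer cells that express a gene and less of its RNA in each cell cannot be told apart.

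The SK-hep1 levels of the other enzymes are given in the order mock, PSPC1 without and with PTK6, and mutant without and with PTK6. LOX, the founding lysyl oxidase, stood at 4.67, 10.1, 17.3, 3.79 and 25.9 FPKM, and the intervals of mock (4.07 to 5.36) and of the mutant alone (3.24 to 4.43) overlapped. LOXL4 stood at 0.720, 1.39, 3.86, 0.376 and 3.09 FPKM, with the highest 2 in the libraries that received PTK6. PLOD2 stood at 23.7, 13.8, 38.2, 18.1 and 49.7 FPKM, and no 2 of its intervals overlapped. PLOD2 thus had its highest 2 levels in the same libraries as LOX and LOXL4. LOXL1 stood at 42.7, 54.5, 42.9, 41.9 and 116 FPKM, where mock, PSPC1/PTK6 and the mutant alone were not separated by counting error. TGM2 stood at 3519, 2639, 1998, 5216 and 4653 FPKM, highest in the libraries of the mutant. The rest moved over a narrower range, LOXL2 from 1036 to 1387 FPKM, PLOD1 from 186 to 305, PLOD3 from 243 to 387 and LOXL3 from 0.475 to 1.17. PLOD2 stood at 105, 88.0 and 107 FPKM in Mahlavu mock, PSPC1-CT131 and Mut-NLS, and at 139 and 128 FPKM in untreated and HGF-treated Huh-7.

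The 4 enzymes that were higher with PTK6 on both PSPC1 backgrounds of SK-hep1 were PXDN, LOX, LOXL4 and PLOD2. Their promoters are printed to show what DNA lies before the start of the genes that differed in the same direction, and because LOX and PLOD2 belong to the genes known to respond to hypoxia, whose factors bind a core of ACGTG or GCGTG. Each run holds the 250 bases before the RefSeq start (GRCh38.p14), 5′ to 3′ on the strand of the gene, and capitals mark each core on either strand, which reads CACGT or CACGC where it lies on the other strand.
PXDN promoter: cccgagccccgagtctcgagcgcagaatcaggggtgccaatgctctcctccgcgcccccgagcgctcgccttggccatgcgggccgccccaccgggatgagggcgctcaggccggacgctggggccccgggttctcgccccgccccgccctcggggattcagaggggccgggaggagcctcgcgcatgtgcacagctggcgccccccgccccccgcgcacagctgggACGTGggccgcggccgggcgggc
LOX promoter: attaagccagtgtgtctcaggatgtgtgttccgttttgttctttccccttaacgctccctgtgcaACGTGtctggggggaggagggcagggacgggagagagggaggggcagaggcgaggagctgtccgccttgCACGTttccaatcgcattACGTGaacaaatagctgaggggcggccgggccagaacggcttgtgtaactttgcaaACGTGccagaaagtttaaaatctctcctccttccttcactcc
PLOD2 promoter: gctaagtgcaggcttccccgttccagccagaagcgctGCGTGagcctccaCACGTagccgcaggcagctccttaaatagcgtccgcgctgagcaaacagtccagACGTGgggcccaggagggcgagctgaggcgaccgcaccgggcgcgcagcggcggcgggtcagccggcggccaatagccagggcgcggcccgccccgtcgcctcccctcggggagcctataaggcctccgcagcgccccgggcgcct
LOXL4 promoter: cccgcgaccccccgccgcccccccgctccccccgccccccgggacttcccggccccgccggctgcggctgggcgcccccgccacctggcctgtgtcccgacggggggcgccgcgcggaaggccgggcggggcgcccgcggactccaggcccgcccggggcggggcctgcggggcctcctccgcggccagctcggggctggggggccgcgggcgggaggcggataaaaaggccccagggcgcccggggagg
The runs are chr2:1744516-1744765 for PXDN, chr5:122078260-122078509 for LOX, chr3:146161185-146161434 for PLOD2 and chr10:98268195-98268444 for LOXL4, all on the minus strand. LOX has 3 starts in the RefSeq table, and the one nearest to the start of the gene in the deposited tables was used. The gene starts in the deposited tables lie further upstream than these RefSeq starts, by 337 bases for PXDN, 101 for LOX, 2469 for PLOD2 and 56 for LOXL4. LOX held 4 cores, PLOD2 held 3, PXDN held 1 and LOXL4 held 0, and no marked core overlapped another. Of 27305 promoters of the same length, 43.1% held at least 1 core and 7.89% at least 3. Of the other enzymes whose promoters were searched, PLOD1 held 2 cores and LOXL1, LOXL3 and PLOD3 held 0. The promoters of LOXL2 and TGM2 were not searched. The GC content was 78.4% in PXDN, 72.4% in PLOD2, 86.4% in LOXL4 and 55.2% in LOX, against a median of 58.0% over all promoters. A core is a match of letters and was not tested as a binding site.

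The first comparison was PSPC1 against mock in SK-hep1, which is the one that chose PXDN. Of the 10 enzymes, 1 was at least 2-fold lower and 0 were at least 2-fold higher, where 2.19% of 12410 genes were lower and 3.38% were higher by that rule. All differences are of log2(quantile-normalized FPKM + 1), and a gene entered where its mean in the 2 compared libraries was 1 FPKM or more. Levels in FPKM and ratios of read rates are not quantile normalized, so their sizes need not match these differences. PXDN differed by -4.27 on this scale, first from the lowest of all 12410 genes, and its read rate was 0.0366 times those of mock (interval 0.0313 to 0.0426). These values belong to the choice of PXDN and support nothing further. Among the other enzymes LOX differed by 0.98, from 4.67 FPKM (200 reads) in mock to 10.1 FPKM (405 reads). LOX sat just under the 2-fold limit, and its ratio of read rates was 2.17 (1.83 to 2.58). PLOD2 differed by -0.66, from 23.7 to 13.8 FPKM, and TGM2 by -0.42, from 3519 to 2639 FPKM. The remaining 6 enzymes lay between 0.10 and 0.47. The median over the 10 enzymes was 0.13, and over all genes it was -0.03.

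The mutant without PTK6 was compared with the same mock library, so it shares that library with the comparison above. Of 9 enzymes tested, 1 was lower, where 2.46% of all genes were, and 0 were higher, where 2.83% were. The lower one was PXDN, with a difference of -4.03 and a read rate at 0.0438 times mock (0.0380 to 0.0501). The mock level of PXDN took part in the choice of the gene, so this call is not free of that choice. LOX had 158 reads against 200, a difference of -0.12 whose ratio of 0.812 had an interval of 0.655 to 1.01, so no difference from mock was detectable at this depth. TGM2 stood at 5216 FPKM against 3519 and was the third from the top of all genes in that library. Its normalized difference was 0.88, and 0.57 with FPKM as deposited, the lowest of the settings. PLOD3, which hydroxylates lysines and also glycosylates them, differed by 0.60, and PLOD1 by 0.48. PLOD2 differed by -0.28, from 23.7 to 18.1 FPKM. LOXL4 was under the filter, with 29 reads against 57.

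The libraries with PTK6 were set against the same mock library. In PSPC1/PTK6 against mock 2 of 9 enzymes were at least 2-fold higher, LOX and LOXL4, where 5.09% of all genes were, and 0 were lower, where 3.32% were. LOX stood at 17.3 FPKM (817 reads), a difference of 1.39. LOXL4, a LOX-like enzyme with several scavenger receptor domains, stood at 3.86 FPKM (337 reads) against 0.720 FPKM (57 reads), a difference of 1.16. LOXL4 is so low that a pseudocount of 5 brought this to 0.50, and read counts with TMM scaling to 1.92. PXDN differed by -0.85, so its level was below mock but inside 2-fold, and read counts with TMM or median-of-ratios scaling put it just past. PLOD1 differed by 0.79 and PLOD2 by 0.52, from 23.7 to 38.2 FPKM. TGM2, at 1998 FPKM, was at its lowest of the 5 SK-hep1 libraries, with a difference of -0.62.

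In PSPC1-Y523F/PTK6 against mock 5 of 9 enzymes were past 2-fold, and 3 with a pseudocount of 5. Of the 9, 4 were higher, LOX, LOXL1, LOXL4 and PLOD2, where 3.44% of all genes were, and 1 was lower, PXDN, where 1.59% were. LOX stood at 25.9 FPKM (1243 reads) against 4.67, a difference of 2.24. LOXL1, known for its role in elastic fibres, stood at 116 FPKM (4088 reads, interval 112 to 119), while the other 4 SK-hep1 libraries lay between 41.9 and 54.5 FPKM. LOXL1 was thus high in 1 library, and its difference from mock was 1.39. PLOD2 stood at 49.7 FPKM (2440 reads), a difference of 1.07 that a pseudocount of 5 brought to 0.97. LOXL4 differed by 1.33, which the same pseudocount brought to 0.59. PXDN differed by -1.84. The 4 comparisons with mock share the mock library, and an error in it would move all of them. For PXDN that library also took part in the choice of the gene.

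**Figure D2:**
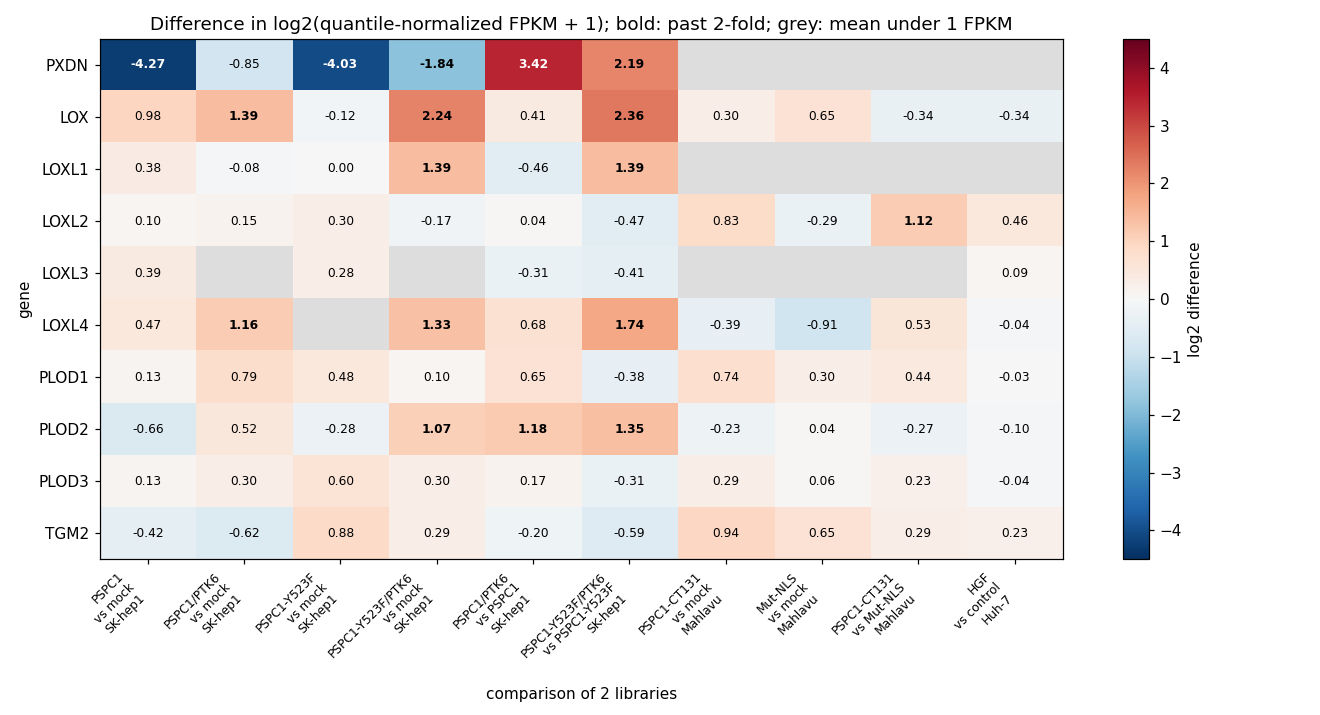
Rows are the 10 genes, columns the 10 comparisons of 2 libraries, and colour and printed value give the difference of log2(quantile-normalized FPKM + 1). Grey cells had a mean under 1 FPKM, and bold values are past 2-fold; PXDN ran from -4.27 to 3.42, and no gene passed 2-fold after HGF.

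PTK6 was examined further by comparing each library that received it with its partner that did not. These 2 comparisons share no library, but the library given PSPC1 alone chose PXDN, so for PXDN only the pair with the mutant is free of the choice. In PSPC1/PTK6 against PSPC1, 2 of 10 enzymes were higher, PXDN and PLOD2, where 3.09% of all genes were, and 0 were lower, where 1.87% were. In PSPC1-Y523F/PTK6 against PSPC1-Y523F, 5 of 10 were higher, PXDN, LOX, LOXL1, LOXL4 and PLOD2, where 3.78% of all genes were, and 0 were lower, where 2.2% were. The difference of LOXL4 in the second pair, 1.74, fell below 2-fold with a pseudocount of 5, at 0.72. The median over the 10 enzymes was 0.29 in the first pair and 0.52 in the second, and over all genes it was -0.02 and -0.03. In both pairs the library with PTK6 also held more PSPC1, as given above, so the kinase and the amount of PSPC1 cannot be told apart.

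PXDN differed by 3.42 in the pair with PSPC1 and by 2.19 in the pair with the mutant. Its ratio of read rates was 5.51 in the latter (4.77 to 6.39) and 14.9 in the former (12.8 to 17.5). PLOD2 went from 13.8 to 38.2 FPKM with PSPC1 and from 18.1 to 49.7 FPKM with the mutant, and its ratios of 2.76 (2.51 to 3.04) and 2.74 (2.53 to 2.98) overlapped. For PLOD2 in the pair with PSPC1, taking gene length and GC content out brought the difference of 1.18 to 0.83, below 2-fold, and the differences of all genes in that pair had a Spearman's rho of -0.308 with GC content. LOX differed more in the pair with the mutant, with a ratio of 6.83 (5.79 to 8.12) against 1.71 (1.51 to 1.93) with PSPC1. LOXL4 gave 8.21 (5.59 to 12.5) from 29 and 274 reads with the mutant, and 2.77 (2.22 to 3.49) with PSPC1. Quantile normalized, the pair with PSPC1 gave log2 differences of 0.41 for LOX and 0.68 for LOXL4, both inside 2-fold. The pair with the mutant gave 2.36 and 1.74. PXDN, PLOD2, LOX and LOXL4 were higher in both pairs. For PXDN, LOX and LOXL4 the ratios of the 2 pairs lay outside each other's counting intervals. The larger ratio was with PSPC1 for PXDN, in the pair that holds the library which chose it, and with the mutant for LOX and LOXL4.

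LOXL1 and PLOD1 took opposite directions in the pairs. LOXL1 had a ratio of 0.788 (0.734 to 0.846) with PSPC1 and 2.77 (2.60 to 2.95) with the mutant. PLOD1, which hydroxylates lysines of the helical part of collagen, had 1.54 (1.49 to 1.60) with PSPC1 and 0.772 (0.745 to 0.800) with the mutant. TGM2 was lower with PTK6 in both, at 0.757 (0.751 to 0.763) and 0.892 (0.887 to 0.897). Its normalized differences were -0.20 and -0.59, and the latter was -0.05 with read counts scaled by TMM factors. LOXL2, by far the most abundant LOX gene here, was inside 2-fold in both, with ratios of 1.02 and 0.747, and PLOD3 had 1.07 and 0.797. LOXL3 had 22 to 51 reads in these 4 libraries. Its ratio with PSPC1, 0.960, had an interval of 0.630 to 1.47, so no difference was detectable at this depth, and its ratio with the mutant, 0.503, had an interval of 0.283 to 0.872, which did not include 1.

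**Figure D3:**
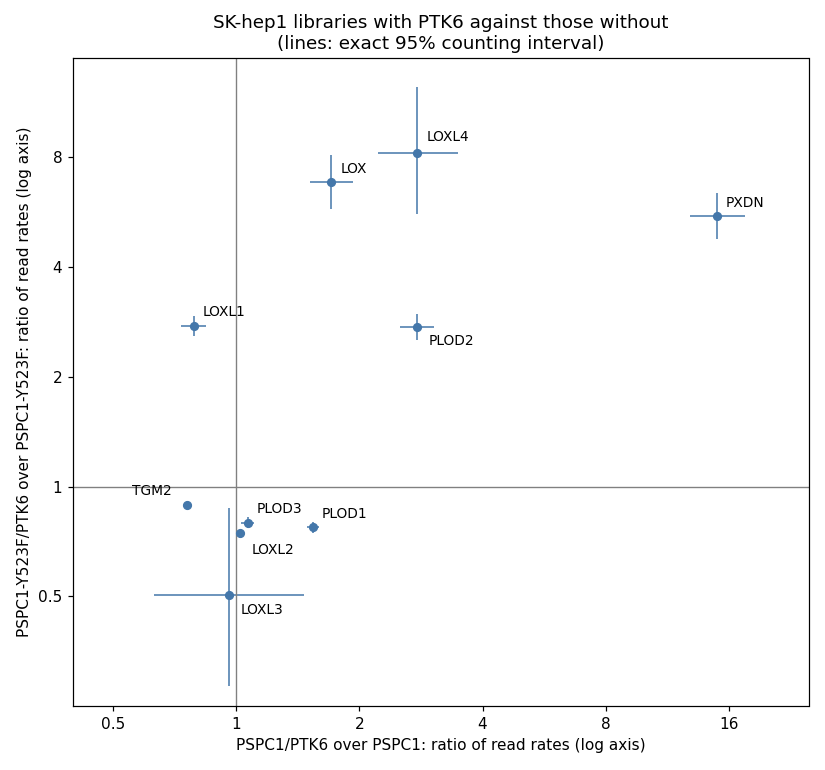
Each point is 1 gene, with the ratio of read rates of PSPC1/PTK6 over PSPC1 on the horizontal axis and of PSPC1-Y523F/PTK6 over PSPC1-Y523F on the vertical axis, both on log axes. Lines are exact 95% counting intervals; PXDN, LOX, LOXL4 and PLOD2 lie above 1 on both axes, LOXL1 lies at 0.788 and 2.77 and PLOD1 at 1.54 and 0.772.

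By the smallest root-mean-square difference of line-centred log2 values over the 8 SK-hep1 and Mahlavu libraries, the genes most like PXDN among 12902 were GFPT2 (0.44), LRP3 (0.49), CD74 (0.52), SP140 (0.53) and EXTL1 (0.63). They were picked in part on the library that chose PXDN, so their likeness is a description. Over the SK-hep1 libraries (mock, PSPC1, PSPC1/PTK6, PSPC1-Y523F, PSPC1-Y523F/PTK6), GFPT2, an enzyme of hexosamine synthesis, had 243, 10, 158, 8 and 87 reads. CD74, the invariant chain of MHC class II, had 2377, 171, 1679, 173 and 303 reads in that order. Both were lowest in PSPC1 and PSPC1-Y523F and highest in mock, as PXDN was. In Mahlavu GFPT2 had 1286 to 1772 reads and CD74 had 4 to 13, while PXDN had 0. LRP3, a receptor of the LDL receptor family, reached 6.18% of its mock FPKM in PSPC1 and 64.9% in PSPC1/PTK6. Of the enzymes described here PLOD2 was nearest to PXDN, at 1.14 and 351st among all genes, and LOX, LOXL1, LOXL2, PLOD3 and TGM2 stood at 1.43 to 1.55.

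**Figure D4:**
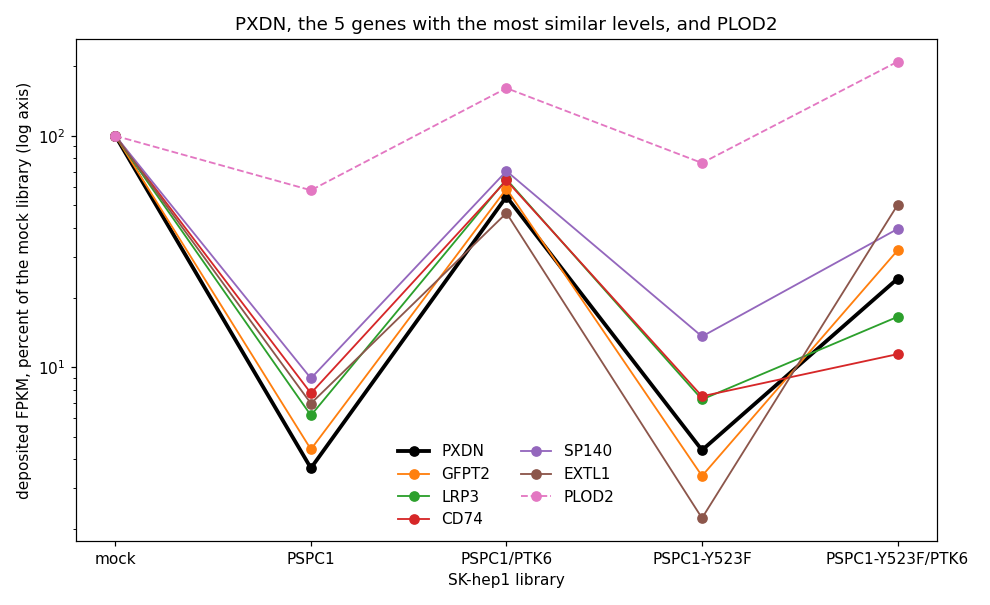
Points give the deposited FPKM of each SK-hep1 library as a percent of the mock library, on a log axis, for PXDN, the 5 genes nearest to it and PLOD2, with lines joining the points of 1 gene. PXDN stood at 3.66%, 54.6%, 4.38% and 24.1% of mock from left to right, while PLOD2 stood above mock in both libraries with PTK6, at 161% and 209%.

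In Mahlavu the abundant enzymes were LOXL2, PLOD3 and PLOD1, and the differences were smaller. Of 7 enzymes tested in the library labelled PSPC1-CT131 against mock, 0 were past 2-fold in either direction, where 3.17% of all genes were higher and 3.16% lower. LOXL2 stood at 1160 FPKM in mock, 2264 FPKM in PSPC1-CT131 and 1004 FPKM in Mut-NLS, and was 19th from the top of all genes in PSPC1-CT131. Its difference of 0.83 came past 2-fold when read counts were scaled by TMM or median-of-ratios factors, as did those of TGM2 (0.94, from 107 to 199 FPKM) and PLOD1 (0.74, from 276 to 488 FPKM). Across all genes the differences in this comparison followed the GC content of the transcripts, with a Spearman's rho of 0.566, and with length and GC taken out LOXL2 stood at 0.52, PLOD1 at 0.44 and TGM2 at 0.68. The part of GC content in these differences was not tested beyond that.

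The library labelled Mut-NLS against mock also had 0 of 7 enzymes past 2-fold, where 3.16% of all genes were higher and 3.26% lower. LOXL4 went from 5.96 FPKM (494 reads) in mock to 3.05 FPKM (221 reads) in PSPC1-CT131 and 2.15 FPKM (150 reads) in Mut-NLS. Its normalized difference was -0.39 in PSPC1-CT131 against mock. The difference of -0.91 in Mut-NLS passed 2-fold with a pseudocount of 0.1, with FPKM as deposited and with read counts. LOX stood at 16.0 FPKM in mock, 15.6 FPKM in PSPC1-CT131 and 23.1 FPKM in Mut-NLS, and the interval of its ratio in PSPC1-CT131 against mock, 0.876 to 1.09, included 1. That ratio is not normalized, and the normalized difference of LOX there was 0.30, or 0.63 with length and GC taken out. In PSPC1-CT131 against Mut-NLS, 1 of 7 enzymes was higher, LOXL2, where 4.23% of all genes were, and 0 were lower, where 4.59% were. LOXL2 differed by 1.12 there, with a ratio of 2.26 (2.22 to 2.30), and by 0.77 with length and GC taken out. The 3 comparisons share libraries pairwise. LOXL1 had 0 reads in all 3 Mahlavu libraries and LOXL3 had 2 to 5.

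In Huh-7 the enzymes of the HGF library lay within 2-fold of the untreated one. Of 8 tested, 0 were higher, where 0.428% of all genes were, and 0 were lower, where 0.393% were. LOX, the highest of its family there, stood at 37.1 FPKM untreated (1200 reads, interval 35.0 to 39.2) and 28.9 FPKM with HGF (871 reads, interval 27.1 to 30.9), a difference of -0.34. LOXL2 stood at 10.6 FPKM (153 reads) and 14.9 FPKM (200 reads), a difference of 0.46 and a ratio of 1.40 (1.13 to 1.74). These were the 2 largest differences among the 8. PLOD1, PLOD2, PLOD3, LOXL3 and LOXL4 lay between -0.10 and 0.09, and TGM2 at 0.23, from 51.5 to 60.1 FPKM. LOXL1 had 5 and 13 reads and PXDN 1 and 1, under the filter.

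Substrates of these enzymes were followed in gene lists, which also hold other genes of the same matrix. Of 20 collagen IV and basement membrane genes, 12 to 14 passed the filter in each comparison. COL4A1 and COL4A2, the collagen IV chains that peroxidasin cross-links, stayed within 2-fold of mock in each SK-hep1 library, at 52.5 to 61.7 FPKM against 53.3 and at 281 to 324 FPKM against 291. They were level in the same libraries in which PXDN ran from 5.42 to 148 FPKM. In Mahlavu, where PXDN had 0 reads, COL4A1 stood at 113 to 149 FPKM and COL4A2 at 653 to 859 FPKM, and in Huh-7 both were under 0.15 FPKM. The laminin chain gene LAMB1 was higher in PSPC1 (1.27) and in PSPC1/PTK6 (1.07), while LAMA1 was lower in PSPC1 (-1.35), PSPC1/PTK6 (-1.26) and PSPC1-Y523F/PTK6 (-1.36). Against mock, 1 of 13 list genes was higher and 1 lower in PSPC1, 2 and 1 in PSPC1/PTK6, 0 and 0 in PSPC1-Y523F, and 0 and 2 in PSPC1-Y523F/PTK6. Over all genes 3.38%, 5.09%, 2.83% and 3.44% were higher in that order, and 2.19%, 3.32%, 2.46% and 1.59% lower. The medians of the list were 0.37, 0.50, 0.26 and 0.00 in the same order. No list gene passed 2-fold in either pair with and without PTK6, where 4.96% of all genes did with PSPC1 and 5.98% with the mutant. In Mahlavu 3 of 14 were higher and 1 lower in PSPC1-CT131 against mock, where 3.17% and 3.16% of all genes were. LAMA5 (1.16) and LAMA1 (-1.38) were the furthest in each direction. In Mut-NLS 0 passed 2-fold, where 6.42% of all genes did, and after HGF 0 of 12 did, where 0.82% did.

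Fibrillar collagen and elastic fibre genes formed a second list. It holds collagens and elastin, on which the LOX enzymes act, and other elastic fibre genes such as EFEMP2, LTBP4 and FBN1. Against mock, 3 of 9 list genes were higher in PSPC1, 4 of 9 in PSPC1/PTK6, 4 of 11 in PSPC1-Y523F and 4 of 9 in PSPC1-Y523F/PTK6, with medians of 0.83, 0.73, 0.63 and 0.51. Over all genes 3.38%, 5.09%, 2.83% and 3.44% were higher in that order. The count in PSPC1/PTK6 was 2 with read counts scaled by TMM or median-of-ratios factors, and that in PSPC1-Y523F/PTK6 was 2 with a pseudocount of 5. COL5A2, a chain of the collagen that nucleates fibrils, stood at 19.6 FPKM in mock, 120 FPKM in PSPC1, 117 FPKM in PSPC1/PTK6, 89.5 FPKM in PSPC1-Y523F and 53.1 FPKM in PSPC1-Y523F/PTK6. It was the one list gene past 2-fold in all 4. COL1A1 went the other way, from 15.4 FPKM in mock to 3.67 FPKM in PSPC1-Y523F, a difference of -1.61. EFEMP2, also called fibulin-4, which assists LOX in elastic fibre assembly, stood at 2.07 FPKM in mock, 13.2 FPKM in PSPC1/PTK6 and 6.99 FPKM in PSPC1-Y523F/PTK6, differences of 1.89 and 1.45. In the pairs with and without PTK6 the list gave 0 genes with PSPC1, and with the mutant 1 higher, FBN1 (2.17), and 1 lower, COL27A1 (-1.09). Of all genes 4.96% and 5.98% passed 2-fold in these pairs. In Mahlavu 2 of 7 list genes were higher in PSPC1-CT131, where 3.17% of all genes were, COL5A1 among them at 625 FPKM against 284. In Mut-NLS 1 was higher, LTBP4, where 3.16% of all genes were. After HGF 0 of 10 passed 2-fold, where 0.82% of all genes did. Markers of fibroblasts and stellate cells, 3 of which are also list genes, differed between the SK-hep1 libraries as well. Of these markers 5 to 6 of 10 reached 1 FPKM in each library, and their summed level was 193 FPKM in mock, 227 and 376 without and with PTK6 beside PSPC1, and 119 and 210 without and with it beside the mutant. COL3A1, itself a list gene, made up most of each sum, at 139, 167, 287, 79.3 and 121 FPKM in the order of the libraries above. The other markers did not all follow it: COL1A1 stood at 15.4 FPKM in mock and 3.67 to 9.90 FPKM in the other libraries, THY1 at 11.9 FPKM in mock and 35.5 FPKM in PSPC1-Y523F/PTK6, and PDGFRB at 23.6 and 43.0 FPKM in the same 2 libraries. POSTN stood at 9.85 FPKM in PSPC1/PTK6 and at 0.0179 to 0.237 FPKM in the other SK-hep1 libraries. ACTA2 ran from 1.64 to 4.31 FPKM, LUM and PDGFRA stayed under 1 FPKM, and DCN was at or near 0 in all 5. These libraries are all of the SK-hep1 cell line, and the cause of the marker differences was not tested.

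**Figure D5:**
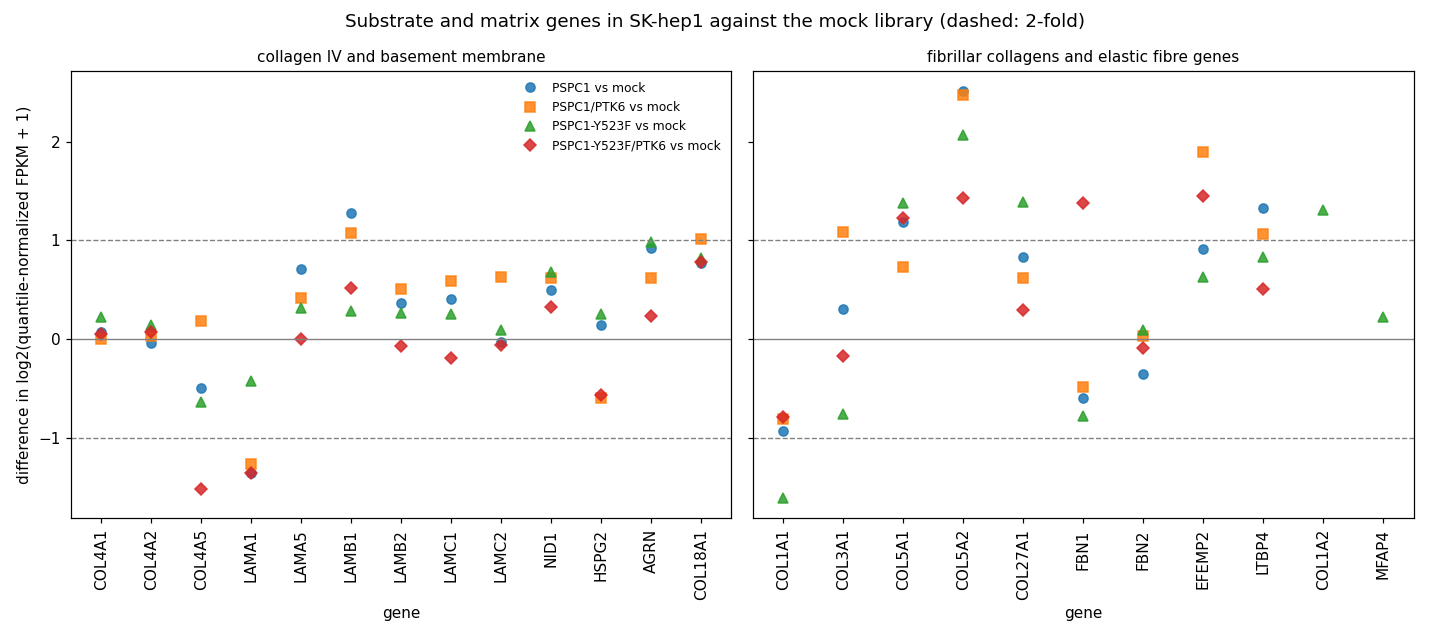
Each mark is the difference of 1 gene from SK-hep1 mock in log2(quantile-normalized FPKM + 1), for the collagen IV and basement membrane list on the left and the fibrillar collagen and elastic fibre list on the right, with 1 symbol for each of the 4 libraries. Dashed lines are 2-fold; COL4A1 and COL4A2 sit near 0 in all 4 libraries and COL5A2 lies above 2-fold in all 4.

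Few of the 24 other collagen-processing enzymes and chaperones passed 2-fold. Of 17 tested in SK-hep1, 0 passed 2-fold in PSPC1, PSPC1/PTK6 and PSPC1-Y523F against mock, and 1, the procollagen C-proteinase BMP1 (1.08, from 15.1 to 31.9 FPKM), was higher in PSPC1-Y523F/PTK6. Over all genes 5.57%, 8.41%, 5.29% and 5.03% passed 2-fold in that order. In Mahlavu the prolyl hydroxylase P4HA2 was higher in PSPC1-CT131 (1.22) and in Mut-NLS (1.23), PCOLCE, an enhancer of BMP1, was higher in PSPC1-CT131 (2.09), and the prolyl 3-hydroxylase P3H2 was lower in Mut-NLS (-1.05). Over all genes 6.33% passed 2-fold in PSPC1-CT131 against mock and 6.42% in Mut-NLS against mock. Of 18 tested in Huh-7, 0 passed 2-fold, where 0.82% of all genes did. Of 14 other peroxidases and transglutaminases, 1 was expressed enough to be tested in SK-hep1 and in Mahlavu and 2 in Huh-7. Of these 1, TGM1, passed 2-fold, in PSPC1-CT131 against Mut-NLS (1.10, with 42 against 11 reads), where 4.23% of all genes were higher.

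LOX, LOXL2, PLOD1 and PLOD2 are known as genes that respond to hypoxia, and a list of 20 other hypoxia-induced genes was followed beside them. In SK-hep1 18 were tested, and 2 to 3 passed 2-fold in each comparison with mock, with medians of 0.03, 0.07, -0.15 and -0.09. Over all genes 5.57%, 8.41%, 5.29% and 5.03% passed 2-fold in the same order. The glucose transporter gene SLC2A1 was higher in PSPC1 (1.11) and PSPC1-Y523F (1.01), while ANGPTL4 was lower in PSPC1 (-2.03), PSPC1/PTK6 (-1.94) and PSPC1-Y523F/PTK6 (-1.73). In PSPC1-Y523F/PTK6 against PSPC1-Y523F, where LOX and PLOD2 were higher, NDRG1 (1.87) and ANKRD37 (1.52) were higher, ANGPTL4 was lower (-1.36), and the median of the list was -0.01. Over all genes 3.78% were higher and 2.2% lower in that pair. In PSPC1/PTK6 against PSPC1, 0 list genes passed 2-fold, where 4.96% of all genes did, and the median of the list was -0.19. In Mahlavu 7 of 20 list genes were higher in PSPC1-CT131 than in mock, where 3.17% of all genes were, and 9 of 20 higher than in Mut-NLS, where 4.23% were, with medians of 0.80 and 0.73. The differences of all genes in these 2 comparisons followed GC content, with a Spearman's rho of 0.566 and 0.574. With length and GC taken out the list had 8 and 7 genes higher and medians of 0.81 and 0.65, while the calls over all genes went from 786 to 505 and from 1098 to 591. With a pseudocount of 5 the count against Mut-NLS was 5. CA9, a carbonic anhydrase, stood at 2.54 FPKM in mock, 26.3 FPKM in PSPC1-CT131 and 13.7 FPKM in Mut-NLS. Of the 4 enzymes, LOXL2 differed by 0.83, PLOD1 by 0.74, LOX by 0.30 and PLOD2 by -0.23 in PSPC1-CT131 against mock, all inside 2-fold. With length and GC taken out they stood at 0.52, 0.44, 0.63 and 0.40, so that PLOD2 changed sign. In Mut-NLS against mock 1 of 19 was higher, CA9 (2.22), and 1 lower, ADM (-1.86), where 3.16% and 3.26% of all genes were. After HGF 0 of 18 passed 2-fold, where 0.82% of all genes did, and the median of the list was -0.26.

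Several of these loci share transcribed bases with a neighbour, and the sources do not say that the counting used strand. LOXL1 on chr15:73925989-73952137 shares 335 exonic bases with its antisense gene LOXL1-AS1, which had 0 to 297 reads in the SK-hep1 and Mahlavu libraries. LOXL1-AS1 had 215 reads in PSPC1-Y523F and 297 in PSPC1-Y523F/PTK6, far fewer than the 1284 and 4088 reads of LOXL1. LOX on chr5:122063195-122078360 shares 138 bases with SRFBP1. SRFBP1 had 184 reads in SK-hep1 mock and 81 in PSPC1-Y523F, against 200 and 158 of LOX. LOXL4 on chr10:98247690-98268250 shares 152 bases with a gene of at most 6 reads. LOXL3 on chr2:74532414-74555690 shares 625 bases with HTRA2, which had 855 to 1363 reads. It shares 216 with DOK1, which had 46 to 471, so the few reads of LOXL3 are uncertain. PLOD3 on chr7:101205977-101218420 shares 429 bases with ZNHIT1 (2177 to 3493 reads) and TGM2 on chr20:38127387-38166578 shares 394 with RPRD1B (1199 to 1980 reads). LOXL2 on chromosome 8 shares 120 bases with ENTPD4, which had at most 1050 reads against the 16894 or more of LOXL2 in the SK-hep1 and Mahlavu libraries. PXDN, PLOD1 on chr1:11934205-11975538 and PLOD2 on chr3:146069440-146163653 share no exonic base with another annotated gene.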

How the data were processed

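The 10 libraries, 1 for each condition, were grouped by their labels. The authors deposited a table per library with FPKM for each gene, and the 8 tables of SK-hep1 and Mahlavu also hold the raw read counts behind them as the authors gave them. The submitters' processing notes name TopHat2 2.0, HTSeq 0.6.1, edgeR and GRCh38.p12, while the methods of the study name hg18. The positions in the tables match GENCODE 29 on GRCh38 for the 10 enzymes. The notes on library preparation also differ, with poly-A selection in the labels and rRNA depletion in the methods.

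From the deposited FPKM, quantile normalization was run on the 8 libraries of SK-hep1 and Mahlavu together and separately on the pair of Huh-7 libraries. The study states this step for all its samples at once, so the set of libraries may differ from the one it used. Huh-7 reads were recovered from gene lengths that the other tables imply, and 100% of the values under 1000 reads came out whole within 0.05. Differences are of log2(quantile-normalized FPKM + 1), for genes whose mean in the 2 compared libraries was 1 FPKM or more, and a change of 2-fold was counted. No test was possible. The enzymes, gene lists and the rule for named genes (all 10 enzymes, list genes past 2-fold up to 4 per list and comparison, COL4A1, COL4A2 and the 5 genes nearest to PXDN) were chosen with earlier results of these data known. Intervals are at 95% and the floor is 3 reads. The steps were tested on simulated data. Alternatives are given in the closing section. Calculations used Python 3.11.15, numpy 2.4.6, pandas 2.3.3, scipy 1.17.1, matplotlib 3.10.9, and edgeR 4.0.16 in R 4.3.3 for TMM factors.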

Additional observations from a re-analysis of the deposited data

Results flagged for a closer look

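LOXL1 moved in opposite directions when PTK6 was present with PSPC1 and with the mutant: its differences on the log2 scale were -0.46 in PSPC1/PTK6 against PSPC1 and 1.39 in PSPC1-Y523F/PTK6 against PSPC1-Y523F, which are 1.85 apart. PLOD1 moved in opposite directions the other way round, with differences of 0.65 and -0.38, which are -1.03 apart. These genes were picked out because the counting intervals of their ratios lay on opposite sides of 1 and at least 1 of the differences was 1.5-fold or more. With 1 library per condition neither contrast between the pairs was tested.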

How the results depend on the processing

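The count of enzymes past 2-fold stayed within 1.5 times its value in 78 of 97 recomputations under 10 alternatives, and no called difference changed direction in any. Of 816 single differences, 560 moved by less than their counting error and 256 by more. In PSPC1 against mock the count was 1 and became 2, with LOX added, under a pseudocount of 0.1, quantile normalization within each cell line, TMM factors, median-of-ratios factors, or length and GC taken out. In PSPC1/PTK6 against mock it was 2 and became 1 with a pseudocount of 5 or a mean of at least 5 FPKM, both of which drop LOXL4, and 4 with median-of-ratios factors, which add PXDN and TGM2 as lower. In PSPC1-Y523F/PTK6 against mock it was 5 and became 3 with a pseudocount of 5, and in PSPC1/PTK6 against PSPC1 it was 2 and became 1 with length and GC taken out. In PSPC1-CT131 against mock it was 0 and became 3 with TMM or median-of-ratios factors, in Mut-NLS against mock it was 0 and became 1, LOXL4, with a pseudocount of 0.1, deposited FPKM with or without scaling to 1000000 per library, or either count scaling, and in PSPC1-CT131 against Mut-NLS it was 1 and became 0 with quantile normalization within each cell line or with length and GC taken out. The cause was not tested beyond what the settings themselves change. FPKM as deposited moved the median of all genes by -0.26 in PSPC1-CT131 against mock, where 16.3% of calls were higher instead of 50.1%, by -0.14 in PSPC1-CT131 against Mut-NLS (23.8% instead of 48.0%), by -0.10 in Mut-NLS against mock (32.3% instead of 49.2%), by 0.22 in PSPC1/PTK6 against PSPC1 (83.9% instead of 62.3%) and by 0.19 in PSPC1/PTK6 against mock (80.7% instead of 60.5%). Scaling FPKM to 1000000 per library gave 14.9%, 23.5%, 30.7%, 83.5% and 80.9% in these, 56.5% instead of 68.4% in PSPC1-Y523F/PTK6 against mock and 53.1% instead of 63.2% in PSPC1-Y523F/PTK6 against PSPC1-Y523F. TMM factors gave 43.2% instead of 53.4% in PSPC1-Y523F against mock.

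Over all genes, 691 passed 2-fold in PSPC1 against mock, 1079 with a pseudocount of 0.1 and 261 with one of 5, and in Huh-7 117, 302 and 7. The length in the FPKM, an alternative chosen after seeing the data, set the order of the PLOD genes: with the longest transcript PLOD1 and not PLOD3 came first in SK-hep1 mock, at 47.3% of the family. No paired analysis was possible because each condition has 1 library and the labels give no shared culture or day. Leaving out a replicate is not possible for the same reason. Depth limits the values of LOXL3, at 2 to 51 reads, of LOXL4 in the libraries where it had few, from 29 reads, and of PXDN and LOXL1 outside SK-hep1, at 0 to 1 and 0 to 13 reads.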
